A study of Xenopus laevis with 54 samples.

Results

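RNA captured on beads was compared with RNA left in the flowthrough of the same capture in blastula embryos of the frog Xenopus laevis at 7 hours post fertilization (hpf). The members are the 8 libraries whose labels give bead or flowthrough RNA at that hour, 4 of each, out of 54 libraries in the series. Each wildtype embryo had received 10 nl of a 50 mM solution of 5-ethynyl uridine (EU) before its first division, about 0.5 mM in the embryo. Both fractions came from such embryos, the labels name no uninjected embryos, and how much RNA without EU the beads held was therefore not measured. Replicates 1 and 2 belong to experiment 1 and replicates 3 and 4 to experiment 2, and the design text describes each replicate as a clutch of its own. Each bead library was paired with the flowthrough library of the same number. The 4 pairs were treated as independent, which was not tested. Deviations from the group mean correlated at 0.380 between flowthrough replicates 1 and 3 and at 0.520 between 2 and 4. On the beads the same correlations were -0.209 and -0.565. Whether replicates of the 2 experiments share a clutch was not tested. Total RNA at 7 hpf (replicates 1 and 2), the bead, flowthrough and total libraries of the other hours and the 2 egg libraries (experiment 2) are used only to describe genes found in that comparison.

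EU is a uridine analog that cells build into RNA as they make it, and its alkyne group allows biotin to be attached by click chemistry, so that labelled RNA binds streptavidin. A frog egg carries a large store of maternal messages and its genome is nearly silent during the rapid cleavages. Transcription of the embryo's own genes, zygotic genome activation, becomes widespread in the blastula, and the earliest genes include transcription factors and signals that set up mesoderm, endoderm and ectoderm. Xenopus laevis is an allotetraploid whose genes often exist as an L and an S copy, named after the longer and shorter chromosome of each pair.

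The values are whole numbers that the authors obtained by normalizing between libraries and rounding, so they are neither counts nor corrected for gene length, and levels are compared within a gene only. All differences are bead minus flowthrough on the log2(value + 1) scale with their standard error (SE), a scale that understates the change of genes near 0. A gene was tested when its value was at least 10 in at least 4 of the 8 libraries, which 18032 genes passed. A gene was called when the adjusted p of a paired limma-trend fit was under 0.05 and the difference at least 2-fold.

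The paired test called 100 genes higher on the beads, 0.555% of those tested, and 1 gene lower, 0.00555%. Of the 100, 53 have a proper symbol, among them many known patterning genes of the early embryo, 33 have only a LOC number and 13 only a provisional ID. The largest difference was that of the unnamed gene Xelaev18000217m, at 929, 859, 1331 and 5294 on the beads against 0, 2, 0 and 4 in flowthrough (9.61 ± 0.69, limma adjusted p = 0.016). All 100 were at least 2-fold higher on the beads in each of the 4 pairs, and in all 100 the lowest bead value lay above the highest flowthrough value. By that simpler description, without a test, 345 genes were at least 2-fold higher in each pair (1.91%) and 46 lower (0.255%), and the 4 bead values lay all above the 4 flowthrough values in 701 genes (3.89%) and all below them in 681 (3.78%). Flowthrough was under 10 in all 4 libraries for 73 of the 100 genes and for 227 of all genes tested. Such genes passed the filter only through the beads, so their bead values had to lie above their flowthrough values. Whole embryos were used, so more cells making an RNA and more RNA per cell cannot be told apart. With 4 pairs the calls depended on every replicate. The counts of genes called higher were 33, 53, 0 and 36 without replicates 1, 2, 3 and 4, and without replicate 3 an unadjusted p under 0.05 was still reached by 416 genes higher and 84 lower, against 730 and 599 with all pairs.

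The homeobox genes of the Mix and Bix family, which act downstream of maternal VegT and Nodal signals in mesoderm and endoderm, were among the named genes with the largest differences. The gene mix1.L stood at 607, 538, 729 and 637 on the beads in replicates 1 to 4 and at 0, 3, 2 and 3 in flowthrough. All bead values were far above all flowthrough values, in both experiments, with a difference of 7.89 ± 0.77 (SE, 4 pairs; limma adjusted p = 0.0231). Its copy mix1.S had 644, 405, 349 and 254 on the beads against 3, 3, 3 and 2 in flowthrough (6.71 ± 0.73, limma adjusted p = 0.0251). The neighbouring gene bix1.1.L was at 1051, 896, 763 and 1313 on the beads and at 1, 3, 6 and 4 in flowthrough (7.91 ± 0.63, limma adjusted p = 0.0188). In the same family bix1.2 and bix1.3 were called in both copies, and bix1.1.S, called with an adjusted p of 0.0282 in limma, was listed at 0 in all 4 flowthrough libraries and at 261, 149, 96 and 226 on the beads. All of these genes but bix1.3.L, at 11 in flowthrough replicate 1, had flowthrough values under 10 throughout. They passed the filter only through the beads, so their bead values had to lie above their flowthrough values in both experiments. The genes belong to 1 family and exist as L and S copies, so reads that members share could be split unevenly among them, and the value of a single member is uncertain.

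**Figure D1:**
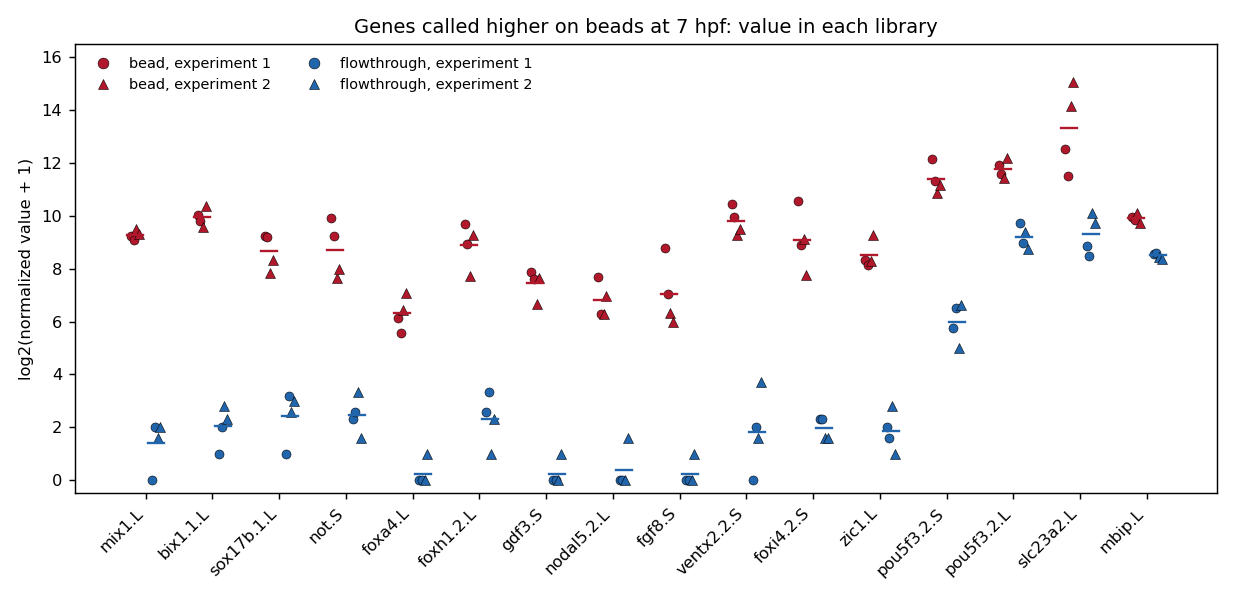
Values of 16 genes called higher on beads in the 8 libraries of 7 hpf, as log2(value + 1); red marks are bead and blue flowthrough libraries, circles experiment 1 and triangles experiment 2, and bars the mean of 4 libraries. For each gene the 4 bead marks lie above the 4 flowthrough marks, and the flowthrough level ranges from 0 for most libraries of gdf3.S to between 354 and 1113 for slc23a2.L.

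Endoderm and dorsal factors were enriched with them. The HMG-box gene sox17b.1.L, a determinant of endoderm, had bead values of 602, 581, 230 and 322 and flowthrough values of 1, 8, 5 and 7 (6.21 ± 0.81, limma adjusted p = 0.0378), and sox17b.1.S and sox17a.L were called too. For sox17a.S, at 290, 134, 51 and 151 on the beads, the adjusted p was 0.0633 in limma, and it was not called. The notochord homeobox gene not.S lay at 974, 607, 197 and 251 on the beads and at 4, 5, 9 and 2 in flowthrough (6.24 ± 0.80, limma adjusted p = 0.0378). The forkhead gene foxa4.L, expressed in the dorsal midline, had 70, 47, 86 and 134 on the beads against 0, 0, 0 and 1 in flowthrough (6.06 ± 0.81, limma adjusted p = 0.0405). In the list of mesendoderm transcription factors 27 of 69 genes in the table were tested, 14 were called higher and none lower, and 18 were at least 2-fold higher in each pair. Beside these and the list counts that follow stand 0.555% called higher and 1.91% at least 2-fold higher in each pair over all genes tested. Of the 27, 16 had flowthrough values under 10 throughout and so passed the filter only through the beads, which means that they had to differ.

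The egg-stored factors foxh1.L and vegt.L of that list were not called. The gene foxh1.L, which encodes a maternal partner of Smad proteins in Nodal signalling, stood at 3140, 2780, 2298 and 1663 on the beads and at 3039, 2647, 3074 and 3043 in flowthrough, a difference of -0.29 ± 0.21 (limma adjusted p = 0.532). Its relative foxh1.2.L was at 5 and 1 in the 2 egg libraries, and at 825, 490, 209 and 618 on the beads against 5, 9, 1 and 4 in flowthrough (6.60 ± 0.68, limma adjusted p = 0.0231). The T-box gene vegt.L, the maternal determinant of endoderm, had bead values of 1552, 1529, 876 and 913 and flowthrough values of 2009, 1723, 1688 and 1806 (-0.62 ± 0.20, limma adjusted p = 0.521). All 4 bead values of vegt.L lay below all flowthrough values, as in 3.78% of all genes tested, and by more in experiment 2 than in experiment 1. The T-box gene eomes.L was not tested, since only the beads of experiment 1 held it, at 77 and 59, and the other 6 libraries listed it at 0.

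Ligands of the Nodal pathway were called in 2 cases. The TGF-beta family ligand gdf3.S gave 233, 193, 100 and 200 on the beads against 0, 0, 0 and 1 in flowthrough (7.20 ± 0.84, limma adjusted p = 0.0296). The Nodal ligand gene nodal5.2.L had 204, 78, 78 and 124 on the beads against 0, 0, 0 and 2 in flowthrough (6.42 ± 0.87, limma adjusted p = 0.0422). The related gene nodal3.2.L, a target of maternal Wnt signalling in the organizer, had 147, 97, 65 and 576 on the beads against 0, 0, 2 and 0 in flowthrough (6.86 ± 1.04, limma adjusted p = 0.0574) and was not called. Of the 12 Nodal and early Wnt genes tested, out of 30 in the table, 2 were called and 5 were at least 2-fold higher in each pair, all 5 with flowthrough under 10. The Wnt target axin2.L, also present in eggs, had 771, 1041, 607 and 801 on the beads against 596, 872, 609 and 751 in flowthrough (0.18 ± 0.17, limma adjusted p = 0.602). The homeobox gene sia1.L, which responds to maternal Wnt on the dorsal side, was at 212, 116, 2 and 224 on the beads and listed at 0 in all flowthrough libraries, and was not tested because only 3 libraries reached a value of 10.

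Among signals of the organizer and the marginal zone, fgf8.S, a fibroblast growth factor gene, was the only member called of 14 tested, with 437, 131, 80 and 62 on the beads against 0, 0, 0 and 1 in flowthrough (6.78 ± 0.97, limma adjusted p = 0.0491). Its copy fgf8.L was listed at 0 in every flowthrough library and at 149, 60, 51 and 26 on the beads, with an adjusted p of 0.0523 in limma. The secreted antagonist gene cer1.S had 66, 28, 19 and 162 on the beads and was listed at 0 in all flowthrough libraries, at an adjusted p of 0.0654 in limma. The ligand gene bmp4.L had 103, 78, 29 and 150 on the beads against 0, 0, 3 and 3 in flowthrough, at an adjusted p of 0.111. In that list 6 genes were at least 2-fold higher in each pair and none lower, and 7 had flowthrough values under 10 throughout. The Wnt ligand gene wnt8a.L, at 161, 36, 27 and 0 on the beads and 0 in flowthrough, did not pass the filter.

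Ventral homeobox repressors of the Ventx family, which respond to BMP signals, were captured in both copies of some genes. The gene ventx2.2.S lay at 1406, 979, 611 and 717 on the beads and at 0, 3, 2 and 12 in flowthrough (7.96 ± 0.88, limma adjusted p = 0.0282), and ventx2.2.L had 380, 115, 282 and 304 against 0, 1, 4 and 0 (7.13 ± 0.95, limma adjusted p = 0.0405). For ventx2.1, the S copy was called at 1008, 773, 567 and 1055 on the beads against 5, 0, 8 and 3 in flowthrough (7.75 ± 0.78, limma adjusted p = 0.0231). The L copy, at 372, 208, 84 and 72 on the beads, was not, with an adjusted p of 0.0688 in limma. Of 17 BMP-responsive and ventral genes tested, 4 were called, all of the Ventx family, and 8 were at least 2-fold higher in each pair. Flowthrough values were under 10 throughout for 6 of the 17, which passed the filter only through the beads and so had to differ. The BMP target id3.L was one of the 8 that were 2-fold higher in each pair, with 120, 19, 26 and 149 on the beads and an adjusted p of 0.0654 in limma.

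Genes of the ectoderm were captured as well. The forkhead gene foxi4.2.S, which acts in ectoderm specification, had 1502, 471, 558 and 214 on the beads against 4, 4, 2 and 2 in flowthrough (7.12 ± 0.74, limma adjusted p = 0.0231), with replicate 1 highest and replicate 4 lowest. The zinc-finger gene zic1.L, an early neural gene, had 318, 283, 316 and 623 on the beads against 3, 2, 6 and 1 in flowthrough (6.67 ± 0.83, limma adjusted p = 0.0348). The AP-2 factor tfap2a.L, which acts in epidermis and neural crest, was at 99, 57, 81 and 153 on the beads and at 0, 0, 0 and 1 in flowthrough (6.28 ± 0.81, limma adjusted p = 0.0378). Of 28 ectoderm genes tested, 5 were called, 15 were at least 2-fold higher in each pair and 1 lower, and 13 had flowthrough values under 10 throughout. The Sox factor sox11.S, stored in the egg at 2309 and 2102, was not called, with 2850, 2570, 4347 and 3575 on the beads against 2357, 2321, 2074 and 2164 in flowthrough (0.55 ± 0.21, limma adjusted p = 0.521).

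The Pou5f3 genes, relatives of mammalian Oct4 that work with SoxB1 factors in the early embryo, differed between paralogs. The gene pou5f3.2.S lay at 4519, 2539, 1875 and 2318 on the beads and at 53, 91, 31 and 98 in flowthrough (5.40 ± 0.35, limma adjusted p = 0.0139). Its L copy had more flowthrough RNA, with 3904, 3053, 2767 and 4615 on the beads against 845, 497, 671 and 423 in flowthrough (2.58 ± 0.26, limma adjusted p = 0.0231). Eggs held pou5f3.2.L at 949 and 1601 and pou5f3.2.S at 62 and 42. The maternal paralog pou5f3.3.L was at 3138, 2746, 4105 and 3225 on the beads and at 3572, 3256, 3251 and 3138 in flowthrough, and its fractions overlapped (-0.01 ± 0.17, limma adjusted p = 0.971). Of 17 Pou5f3 and Sox genes tested, both copies of pou5f3.2 were the 2 called, and the list's median difference was -0.01, beside -0.29 over all genes tested.

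The largest named differences outside these lists included hes7.1.L, a gene of the Hes family of basic helix-loop-helix repressors best known as Notch targets. It reached 574, 336, 115 and 428 on the beads against 0, 0, 0 and 1 in flowthrough (8.04 ± 0.87, limma adjusted p = 0.0251), and both copies of hes7.2, hes5.8.L and esr-5.L were called as well. These were picked after their values were seen, and the family was not counted as a list. The kinase-like gene sbk1l.L was listed at 0 in all 4 flowthrough libraries and had 526, 384, 294 and 517 on the beads, at an adjusted p of 0.0231 in limma, and its S copy was also called. The gene gs17.L, long used as an early zygotic transcript of the frog, had 659, 504, 273 and 840 on the beads against 0, 6, 1 and 5 in flowthrough (7.44 ± 0.84, limma adjusted p = 0.0282). The Ras-related GTPase gene rasd1.L had 710, 331, 89 and 259 on the beads against 0, 0, 1 and 0 in flowthrough (7.84 ± 0.99, limma adjusted p = 0.0375). With flowthrough under 10 throughout, hes7.1.L, sbk1l.L, gs17.L and rasd1.L passed the filter only through the beads and so had to differ.

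Other called genes, named after their values were seen, were the hyaluronan synthase genes has1.S and has2.L, whose enzymes make an extracellular polysaccharide. The gene has1.S had 540, 266, 164 and 276 on the beads against 2, 2, 0 and 3 in flowthrough (6.86 ± 0.82, limma adjusted p = 0.0325). The Kruppel-like factor gene klf17.1.S had 1584, 704, 477 and 647 on the beads and a steady 16, 20, 20 and 21 in flowthrough (5.25 ± 0.45, limma adjusted p = 0.0202). The Iroquois homeobox gene irx1.S lay at 213, 159, 130 and 220 on the beads and at 0, 1, 0 and 0 in flowthrough (7.22 ± 0.84, limma adjusted p = 0.0296). Both has1.S and irx1.S had flowthrough under 10 throughout, passed the filter only through the beads and so had to differ.

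A few called genes were also abundant egg messages. Both egg libraries held at least 100 for 6 of the 100 genes, against 11787 of the 18032 tested, and 4 of the 6 have a proper symbol. The vitamin C transporter gene slc23a2.L had 5850, 2898, 18098 and 34128 on the beads against 467, 354, 1113 and 856 in flowthrough (4.00 ± 0.36, limma adjusted p = 0.0202), with experiment 2 higher than experiment 1 in both fractions. Its copy slc23a2.S was not enriched, with 36, 34, 72 and 0 on the beads against 32, 25, 36 and 18 in flowthrough (-0.67 ± 1.14, limma adjusted p = 0.765). The gene mbip.L, whose product is part of a histone acetyltransferase complex in mammals, was at 997, 908, 1093 and 842 on the beads and at 380, 384, 348 and 333 in flowthrough (1.40 ± 0.18, limma adjusted p = 0.0378). This was the smallest difference of the genes named here as called higher. The zinc-finger gene znf33a.L had 974, 810, 998 and 2612 on the beads against 128, 132, 167 and 140 in flowthrough (3.08 ± 0.32, limma adjusted p = 0.0251).

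The called gene with the smallest adjusted p that RefSeq annotates was a long noncoding RNA, LOC108719063, named after its values were seen. It was at 18833, 18040, 6070 and 24160 on the beads and at 22, 72, 54 and 125 in flowthrough (8.00 ± 0.44, limma adjusted p = 0.00697). Both egg libraries listed it at 0, and total RNA of 7 hpf held 10546 and 11316 in replicates 1 and 2. RefSeq (assembly Xenopus_laevis_v10.1) matched 79 of the 100 called genes, of which 74 are protein coding, 3 long noncoding and 2 pseudogenes.

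The 100 genes were described further by egg and total RNA, which the comparison did not use, and by their flowthrough level, which it did. Both egg libraries were at 0 for 50 of the 100 and under 10 for 78, against 173 and 566 of the 18032 genes tested. In flowthrough at 7 hpf, 73 of the 100 were under 10 in all 4 libraries and 19 were listed at 0 throughout, so these 73 entered the test through their bead values and had to differ. Total RNA, from separate libraries of the clutches of replicates 1 and 2, was at least 2-fold higher at 7 than at 5 hpf in both replicates for 93 of the 100 and 2-fold lower for none. Over all genes tested such a rise held for 273, or 1.51%, and such a fall for 27, or 0.15%. Set against the bead values that chose the genes, total RNA of the 100 was a median of 0.218 times the bead value in replicate 1 and 0.245 times in replicate 2. For mix1.L total RNA held 155 and 121, between the bead values of 607 and 538 and the flowthrough values of 0 and 3 of the same clutches.

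Some genes were called in both copies. Of 4566 genes with both an L and an S copy tested, 12 had both copies called higher, among them mix1, gs17, sbk1l, hes7.2, foxi4.2 and zic1. A further 11 had 1 copy called, and in 8 of these 11 both copies were at least 2-fold higher in each pair. The notochord gene not is one of them. Its L copy, which had 108, 138, 117 and 162 in flowthrough and 388 and 339 in eggs, was at 1018, 623, 306 and 596 on the beads (2.16 ± 0.34, limma adjusted p = 0.0643). Reads shared by L and S copies can be split unevenly by the quantification, so the value of a single copy is uncertain.

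Some called genes were neighbours. By the gene order of RefSeq (assembly Xenopus_laevis_v10.1), 25 of the 79 matched genes had another called gene within 10 genes on the same chromosome, in 8 runs. No such count is given for equal numbers of the 16006 tested genes matched, so whether 25 is many was not tested. On chromosome 5L the run was bix1.3.L, bix1.1.L and mix1.L, and on 5S it was mix1.S, bix1.1.S, bix1.2.S and bix1.3.S, without a gene between them. On 3L esr-5.L, hes7.2.L and hes7.1.L lay within 13 genes, and on 6L sox17a.L was next to sox17b.1.L. The longest run, 7 called genes within 19 on 6L, held znf33a.L. Several runs are gene families, among whose members shared reads could be split unevenly.

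Most of the 100 genes had their highest bead level after 7 hpf. The mean bead value was highest at 9 hpf for 71, at 8 hpf for 18, at 7 hpf for 10 and at 6 hpf for 1. Over all 18032 genes tested it was highest at 9 hpf for 4705, at 8 hpf for 2903, at 7 hpf for 3138, at 6 hpf for 3639 and at 5 hpf for 3647. The gene mix1.L was between 76 and 104 on the beads at 6 hpf, between 538 and 729 at 7 hpf and between 5699 and 8742 at 9 hpf, while flowthrough went from 0 in all libraries at 6 hpf to between 36 and 62 at 9 hpf. In contrast hes7.1.L was between 115 and 574 at 7 hpf and between 88 and 492 at 9 hpf, and LOC108719063 had bead values between 6070 and 24160 at 7 hpf and between 3010 and 9605 at 9 hpf. For LOC108719063 the 7 and 9 hpf ranges overlap, but each of the 4 replicates was lower at 9 hpf.

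**Figure D2:**
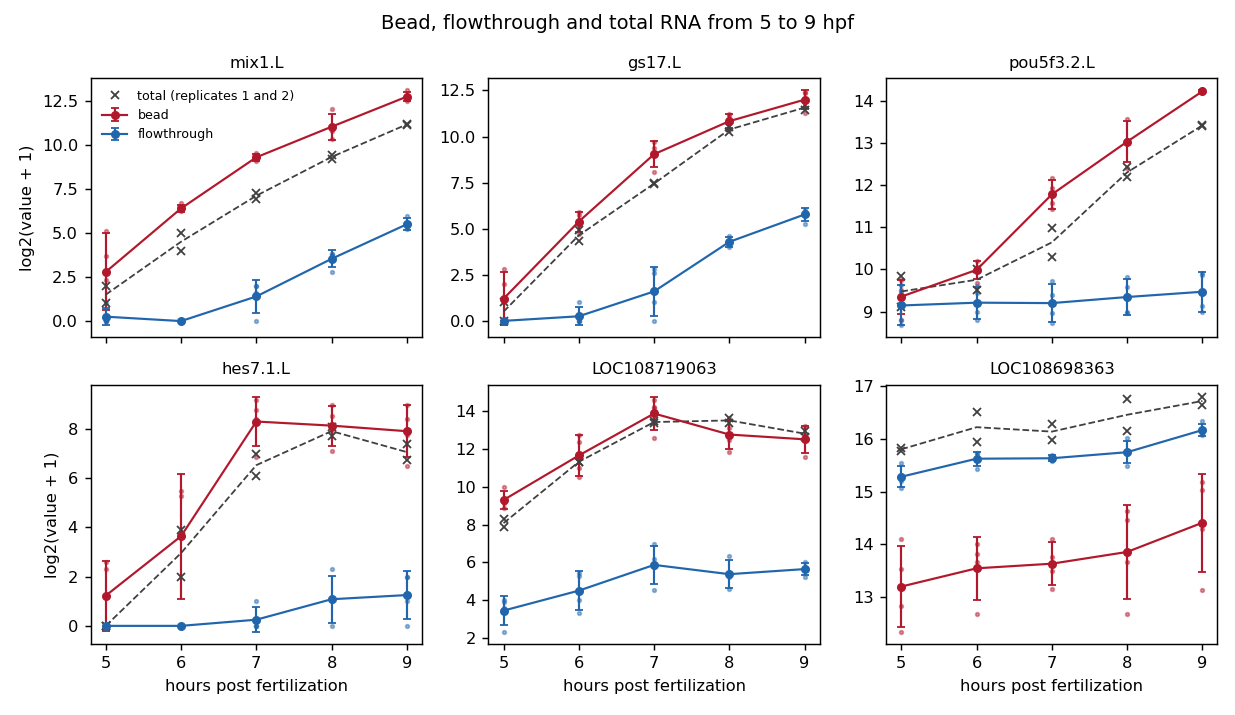
Values as log2(value + 1) of 6 genes from 5 to 9 hpf on beads (red) and in flowthrough (blue), as the mean and SD of 4 libraries with each library as a small dot, and in total RNA (crosses, replicates 1 and 2, dashed line through their mean). The panel of mix1.L climbs to between 5699 and 8742 on the beads at 9 hpf, and the bead mean of LOC108719063 is highest at 7 hpf. In the panel of LOC108698363 the flowthrough mean lies above the bead mean at each hour.

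With all 40 bead and flowthrough libraries in 1 limma fit, which shares the spread over 5 hours, 254 genes were called higher (1.41%) and 5 lower (0.0277%) on the beads at 7 hpf. The numbers called higher were 36 at 6 hpf (0.2%) and 366 at 8 hpf (2.03%). The filter used the libraries of 7 hpf alone, so genes held only by the beads of 6 or 8 hpf were not tested. The counts of the hours and the changes between them therefore lean to genes captured at 7 hpf. All 100 genes of the paired test at 7 hpf were among the 254, but that fit holds the same libraries from which the 100 were chosen. The bead minus flowthrough difference was called larger at 7 than at 6 hpf for 28 genes (0.155%) and smaller for none, with an unadjusted p under 0.05 for 295 and 41 genes. Between 8 and 7 hpf no change of the difference was called in limma (0.0%), at an unadjusted p under 0.05 for 118 genes with a larger difference and 136 with a smaller one. The fit paired bead with flowthrough within each hour, but did not pair the hours of the same replicate. Differences between replicates that last over the hours therefore count as spread. The absence of calls does not show that nothing changed between these hours.

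The single gene called lower on the beads was LOC108698363, with 13923, 17702, 9157 and 11567 on the beads against 49162, 49463, 53176 and 51799 in flowthrough (-2.00 ± 0.23, limma adjusted p = 0.0296). Total RNA held 65042 and 80223 in replicates 1 and 2. LOC108698366, with a difference of -2.49 ± 0.40 (limma adjusted p = 0.0643), and LOC108698365, a long noncoding RNA in RefSeq with -2.18 ± 0.32 (limma adjusted p = 0.0532), were also at least 2-fold lower in each pair. Without replicate 3 or 4 in turn LOC108698363 was not called. Nor was it called without the robust option of limma or among genes with a mean of at least 50. Of the 46 genes at least 2-fold lower in each pair, 42 had a value of 0 in a bead library of experiment 2, and 7 in one of experiment 1. Over all 18032 genes tested such a 0 was found for 4413 and 246.

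The experiments differed in the number of genes detected on the beads. On the beads, genes above 0 numbered 23464 and 26287 in replicates 1 and 2 but 18334 and 15727 in replicates 3 and 4, against 23420 to 24969 in flowthrough. Of the 11517 tested genes with a flowthrough mean of at least 100, the bead libraries listed 0.0782%, 0.0434%, 0.999% and 4.80% at 0 in replicates 1 to 4. The sums of the normalized values were 7469373 to 9903040 on the beads and 7528919 to 7903007 in flowthrough, and since scaling sets them they are not depths. The median difference over all genes tested was 0.01 in experiment 1 and -0.57 in experiment 2, so a difference near those values is that of the typical gene. Whether depth, recovery or the capture set the low detection in experiment 2 was not tested.

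The 100 called genes were at least 2-fold higher on the beads in both experiments. Over all genes, in experiment 1, 500 genes were at least 2-fold higher in both pairs (2.77%) and 100 lower (0.555%), and in experiment 2, 1099 (6.09%) and 3265 (18.1%). When the 8 libraries were fitted with a term for each experiment and 1 shared spread, limma called none in experiment 1 (0.0%), where an unadjusted p under 0.05 was reached by 391 genes higher and 61 lower. In experiment 2 it called 898 higher (4.98%) and 1956 lower (10.8%). Leaving out 1 replicate leaves a lone pair in its experiment, which the term of that experiment fits exactly. The spread then comes from the other experiment alone. The counts of both experiments moved widely with the replicate left out, so only their ranges are given, in the last section. With the 4 libraries of experiment 1 alone, whose spread is smaller, limma called 385 higher (2.14%) and 48 lower (0.266%). For experiment 2 alone it called 710 (3.94%) and 1459 (8.09%). Of the 100 genes of the paired test, 93 were called in experiment 1 alone and 72 in experiment 2 alone. The 100 were chosen from these same libraries, so the 2 counts are not an independent replication.

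**Figure D3:**
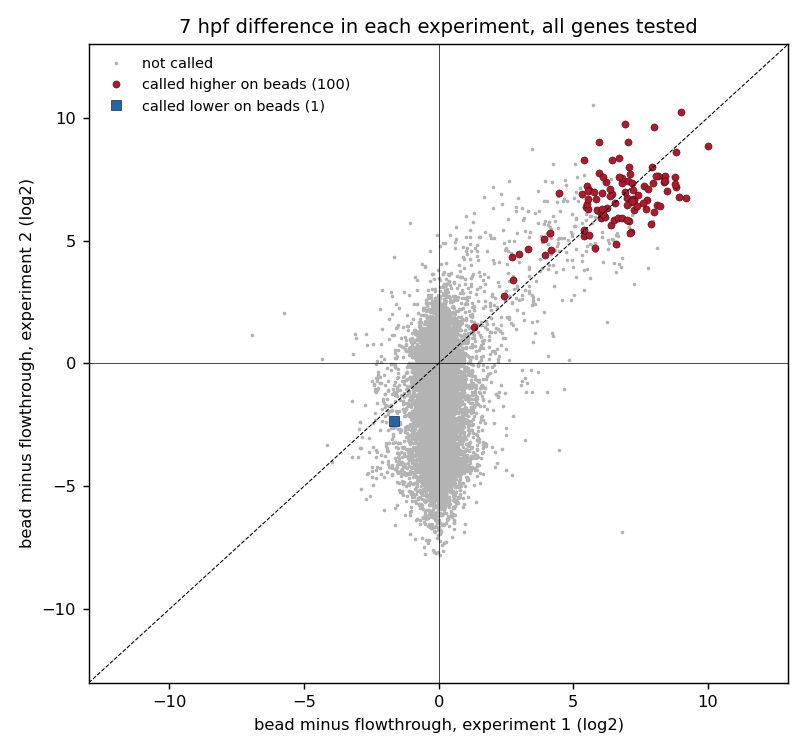
Bead minus flowthrough difference at 7 hpf (log2 of value + 1) of the 18032 genes tested, in experiment 1 (x axis) and experiment 2 (y axis), with the 100 genes called higher in red, the 1 called lower in blue and a dashed line of equality. The 100, which were chosen from these same values, lie near the line in the upper right. The bulk of genes is narrow around 0 in experiment 1 and wide in experiment 2.

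No gene was called as different between the experiments in the test of that difference (0.0%), although an unadjusted p under 0.05 was reached by 2741 genes with a larger difference in experiment 1 and 1134 with a larger one in experiment 2. The test changed with the libraries used. Without replicate 3 or 4 its spread came from experiment 1 alone, where it is smaller, and many genes were called. Without replicate 1 or 2 it came from experiment 2 alone, and none were. A lone pair has no spread of its own, so those outcomes do not show whether the experiments differ. A total of 3 genes of transcription, splicing and export, which were not called as different, are given as examples. Of these, polr2a.S and thoc6.L were picked for the smallest p in this test, so their pattern was chosen for. Other genes picked in the same way are not described, so the grouping by function was chosen from mixed picks. Among them are mtss1.1.L and rnf145l.L, with the larger difference in experiment 2, and the histone gene hist1h2ad.1, with the larger one in experiment 1. The gene polr2a.S, which encodes the largest subunit of RNA polymerase II, was at 4767, 9822, 49029 and 145358 on the beads and at 5513, 8723, 4521 and 8194 in flowthrough. The splicing factor gene srsf4.L had 3288, 3351, 24771 and 45541 on the beads against 2986, 2997, 2606 and 2792 in flowthrough. The gene thoc6.L, for a subunit of the mRNA export complex THO, had 391, 487, 6340 and 5791 on the beads against 396, 472, 547 and 538 in flowthrough. All 3 lay near their flowthrough values in experiment 1 and above them in experiment 2. Of the 37 RNA polymerase II and general factor genes, 4 were at least 2-fold higher and 5 lower in both pairs of experiment 2, with a median of -0.35. Of the 55 SR protein and hnRNP genes 14 were higher and none lower. Over all genes tested 6.09% were higher and 18.1% lower by that rule, with a median of -0.57. For the 3 genes the adjusted p of the difference between experiments was 0.116 in limma for each. The histone gene h3c14.L, also picked for its small p in this test, went the other way. It had 14393, 17215, 2555 and 3163 on the beads against 12216, 15948, 9898 and 15432 in flowthrough. Of 26 core and linker histone genes tested, 3 were at least 2-fold higher and 11 lower in both pairs of experiment 2.

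Lists of housekeeping and maternal messages held no called gene, a count near the 0.555% called higher over all genes tested. None of 141 cytosolic ribosomal protein genes, 131 nuclear respiratory chain genes, 97 translation factor genes, 74 proteasome genes, 52 messages known to be cleared after fertilization, 27 germ plasm messages, 55 SR protein and hnRNP genes or 79 cell cycle genes was called. Their median differences in experiment 1 lay between -0.23 for ribosomal protein genes and 0.08 for SR protein and hnRNP genes, beside 0.01 over all genes. In experiment 2 the median was -1.73 for ribosomal protein genes, -1.47 for respiratory chain genes and 0.38 for SR protein and hnRNP genes, beside -0.57 over all. The germ plasm helicase gene ddx4.L was at 960, 930, 1721 and 2526 on the beads and at 845, 858, 877 and 935 in flowthrough (0.68 ± 0.26, limma adjusted p = 0.521). The S copy of the embryonic cyclin A1 gene, ccna1.S, had 3717, 3608, 2466 and 2029 on the beads against 6545, 5764, 5771 and 5196 in flowthrough. Its difference was -1.02 ± 0.18 (limma adjusted p = 0.0998) with no overlap, as in 3.78% of all genes tested. The more abundant ccna1.L overlapped, with 7378, 5832, 6259 and 5590 on the beads against 9103, 6837, 7765 and 6025 in flowthrough (-0.24 ± 0.16, limma adjusted p = 0.525).

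**Figure D4:**
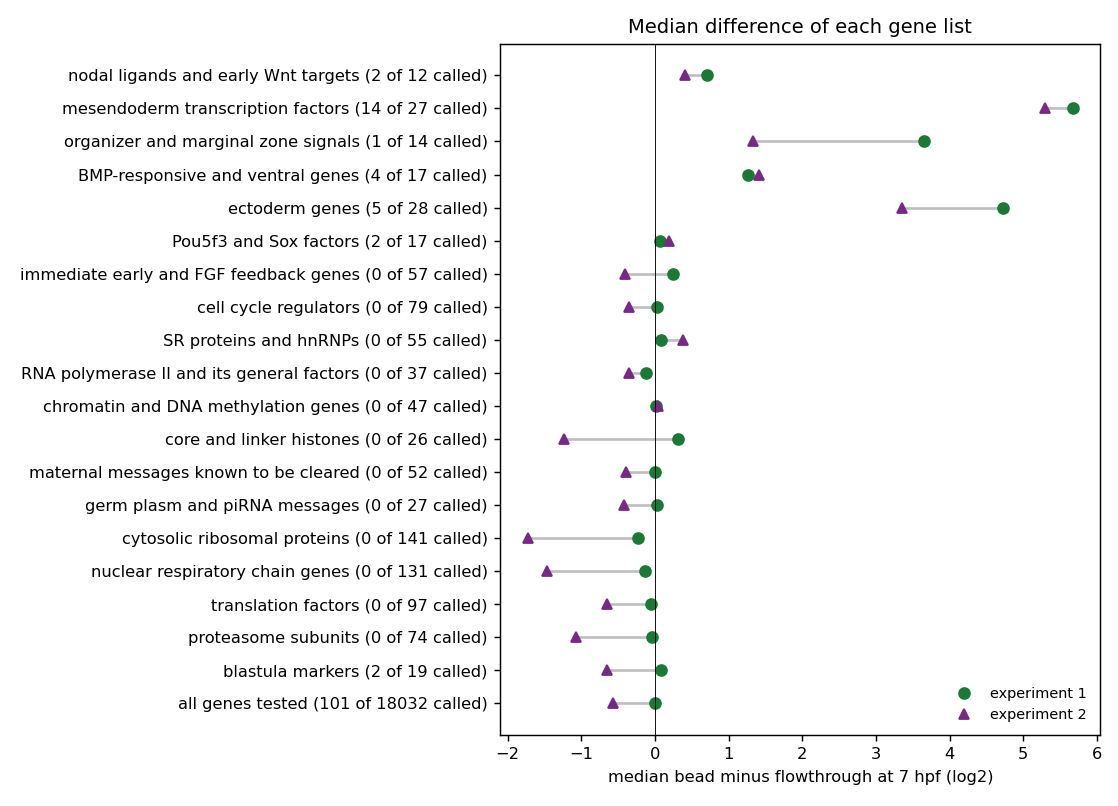
Median bead minus flowthrough difference at 7 hpf (log2 of value + 1) of the tested members of each gene list in experiment 1 (green circles) and experiment 2 (purple triangles), with the number called in brackets. Mesendoderm factors lie at 5.68 in experiment 1, and ribosomal protein genes at -0.23 and -1.73, beside 0.01 and -0.57 over all genes; list members with flowthrough near 0 passed the filter only through the beads.

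Among cell cycle genes 1 was at least 2-fold higher in each pair and 0 lower. Among immediate early genes 3 were higher and 1 lower by that rule, beside 1.91% and 0.255% over all genes tested. The 2 higher genes described here stood near the threshold and were picked after their values were seen. The phosphatase gene cdc25b.L, an activator of cyclin-dependent kinases, had 221, 78, 107 and 37 on the beads against 0, 0, 2 and 0 in flowthrough (6.13 ± 0.91, limma adjusted p = 0.0523). With flowthrough under 10 throughout, cdc25b.L passed the filter only through the beads and so had to differ. The MAP kinase phosphatase gene dusp1.S had 399, 257, 101 and 282 on the beads against 53, 25, 24 and 30 in flowthrough (2.85 ± 0.48, limma adjusted p = 0.073). In all, 0 of 57 immediate early genes and 0 of 79 cell cycle genes were called, beside 0.555% over all genes tested.

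Markers of the blastula and of other tissue were looked up. Blastula markers were present, with 19 of 22 genes in the table tested, among them vegt.L and pou5f3.3.L at the values above. Eggs held vegt.L at 2014 and 2154 and pou5f3.3.L at 3077 and 2830, so their presence does not tell a blastula from an earlier stage. Of 17 ovary, follicle and blood markers 2 were tested, the steroidogenic gene cyp17a1.L at 52 to 381 on the beads and 267 to 386 in flowthrough, and amh.S at 0 to 209 and 43 to 266. None of 15 late differentiation markers passed the filter. Transfer RNA genes, 787 in the table, reached a value of 10 for 46, 29, 3 and 2 genes on the beads of replicates 1 to 4, for 0, 1, 0 and 0 genes in flowthrough, and for 39 and 29 in total RNA of replicates 1 and 2, and 1 was tested.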

How the data were processed

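The deposited values are a score for 50489 genes in 54 libraries. Per the submitters' processing notes, which name Salmon 0.12.0 and DESeq2, the authors normalized them between libraries, and they are rounded to whole numbers. Neither the genome build nor the annotation is given in the sources used here. Depth cannot be read from such values, so no counting interval is given, and no count test was run. Per the labels' protocols, EU-RNA was biotinylated, bound to streptavidin beads and sequenced after depletion of ribosomal RNA.

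The 8 libraries of 7 hpf were fitted with limma 3.58.1 (statmod 1.5.0, R 4.3.3; trended, robust empirical Bayes) on log2(value + 1) with the replicate number as a block, and p-values were adjusted by Benjamini-Hochberg over the genes tested. The design text ties the numbers to clutches. Deviations from the group means correlated between the bead and flowthrough library of the same number at 0.289, 0.316, 0.270 and 0.197. Correlations were nearly as high, at 0.218, 0.283, 0.232 and 0.163, for bead replicates 1 to 4 with flowthrough replicates 3, 4, 1 and 2. They barely separate replicate 1 from 3 or 2 from 4. Flowthrough replicates 1 and 3 correlated at 0.380 and 2 and 4 at 0.520, against -0.682 and -0.657 within the experiments. Bead replicates 1 and 3 were at -0.209 and 2 and 4 at -0.565. Whether clutches are shared across experiments was not tested. The fit was also run on simulated data in which all 8 libraries shared 1 spread per gene. The real spread was wider in experiment 2 than in experiment 1. The simulation therefore does not show how the fit performs on these libraries. Alternatives covered the block, pseudocount, filter, scaling, left-out replicates and each experiment alone. Array weights and the rule of 2-fold in each pair were chosen after seeing the data.

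Members, gene lists and genes were chosen with earlier results of these data known. By rule the text names the called genes with the largest difference and a proper symbol, called genes also held by eggs, and called and abundant uncalled members of each list. The rule also picked genes with the smallest adjusted p for a difference between experiments. Of that kind only polr2a.S, thoc6.L and h3c14.L are described. Other genes were named after their values were seen: sox17b.1, sox17a, not, foxa4, tfap2a, vegt and gs17.S as further list members or copies, and uncalled or untested genes that were 2-fold apart in each pair or are known early genes. RefSeq names and gene order are from assembly Xenopus_laevis_v10.1. Plots were made in matplotlib 3.10.9 (Python 3.11.15).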

Additional observations from a re-analysis of the deposited data

Results flagged for a closer look

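In these checks of 4 libraries a group, chance flags about 1 in 20 groups. Most flags were flowthrough libraries at or near 0, where 1 unit stands apart from equal values. The highest library was replicate 4, at 1, in hes7.1.L, gdf3.S, fgf8.S, tfap2a.L, foxa4.L and has2.L, and at 2 in nodal5.2.L. It was replicate 3, at 1 in rasd1.L and at 2 in nodal3.2.L and cdc25b.L, and replicate 2, at 1 in irx1.S. The lowest library was replicate 1, at 0 in bix1.2.L, and replicate 4, at 0 in sbk1l.S and at 2 in mix1.S. Flowthrough replicate 2 of foxh1.L, at 2647, lay below its 3 fellows at 3039 to 3074. On the beads, replicate 4 of zic1.L, at 623, lay above 283 to 318. Replicate 3 of the mesoderm T-box gene tbxt.S, at 86, lay above 15 to 20 on the beads, beside 2, 5, 2 and 5 in flowthrough (limma adjusted p = 0.521).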

How the results depend on the processing

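Genes called higher numbered 100 with the replicate block, and lower 1. They were 216 and 4 with no replicate block, 159 and 3 with a pseudocount of 10, 193 and 3 with no filter, 29 and 0 among genes with a mean of at least 50, and 307 and 8 after quantile normalization, which moved the median of all genes from -0.29 to -0.08. They were 118 and 2 with size factors of the 8 libraries, 278 and 29 with an experiment by fraction term beside the block, 254 and 5 with 40 libraries, 104 and 0 without the robust option, 385 and 48 in experiment 1 alone, 710 and 1459 in experiment 2 alone, and 376 and 16 with array weights. Leaving out 1 replicate gave 0 to 53 higher and 0 to 3 lower. The 2-fold rule in each pair gave 345 and 46. Of the 100, at least 99 stayed called with no replicate block, a pseudocount of 10, no filter, both scalings and without the robust option, but 29 at a mean of at least 50 and 31, 38, 0 and 35 without replicates 1 to 4. The cause was not tested.

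In experiment 1, with 0 calls in each direction, the counts of higher and lower genes were 84 and 3 with no replicate block, 15 and 1 with a pseudocount of 10, 161 and 4 after quantile normalization and 385 and 48 with its 4 libraries alone, and leaving out a replicate gave 0 to 383 and 0 to 35. In experiment 2, with 898 and 1956, lower genes fell to 1194 after quantile normalization and 805 at a mean of at least 50, and leaving out a replicate gave 11 to 2507 higher and 4 to 7209 lower. Where a lone pair of an experiment is left, it is assumed to vary like the others. Genes differing between experiments numbered 621 with no replicate block and 264 after quantile normalization, and 0 to 9099 without 1 replicate.

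Of 81 tested genes followed through the alternatives, those called kept their direction under every alternative run. Among uncalled ones, slc23a2.S turned to 0.56 after quantile normalization, -1.22 to 0.52 without 1 replicate, 0.30 in experiment 1 alone and 0.29 with array weights. For foxh1.L the difference was 0.0589 in experiment 1 alone and 0.0313 with array weights. For pou5f3.3.L it was 0.0556 with size factors of the 8 libraries, -0.131 to 0.0630 without 1 replicate, and 0.19 in experiment 2 alone. In experiment 1 alone polr2a.S was at -0.0193 and h3c14.L at 0.17, and h3c14.L at 0.0441 with array weights. Depth is unknown, so no counting error can be given for low values.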
